A study of Mus musculus with 24 samples.

Results

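The transcripts of 10 genes that carry or control death receptor signals were followed in mouse spleen: the receptors Fas, Tnfrsf10b, Tnfrsf1a and Tnfrsf1b, the ligands Fasl, Tnfsf10 and Tnf, and the cytoplasmic proteins Fadd, Tradd and Cflar. They were chosen by name, for their place in the pathway, from the 21671 genes in every file, with earlier results of these data known. RNA-seq was done on 24 samples from mice of 8 weeks on a C57/Bl6 background. Each spleen cell suspension had been divided on a magnetic column into B cells, which were retained through B220, and the flow-through, the non-B cells, which was enriched for T cells but held every other nucleated spleen cell. The mice were Trp53+/+ or Trp53-/-, the latter lacking the transcription factor p53 in every tissue, and were either mock-treated or taken 4 h after whole-body exposure to 7 Gy of ionizing radiation (IR). Each of the 4 Trp53+/+ groups had 4 samples and each of the 4 Trp53-/- groups had 2. By the study's methods each condition had 4 Trp53+/+ and 2 Trp53-/- mice, so the samples of a group were taken as separate mice. By that count the B and non-B samples of a genotype and condition shared mice. Whether B and non-B cells with the same number came from 1 mouse was not stated. The comparisons of B with non-B cells treated the samples as independent, and the replicate number entered only in an alternative fit.

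Death receptors are surface receptors of the TNF receptor superfamily that carry a death domain inside the cell. When Fas meets Fas ligand (Fasl), or Tnfrsf10b meets TRAIL (Tnfsf10), the receptor gathers the adaptor Fadd, which brings in the precursor of caspase-8 and starts apoptosis, and Cflar encodes c-FLIP, a catalytically inactive relative of caspase-8 that blocks this step. The TNF receptor Tnfrsf1a works mainly through the adaptor Tradd and more often leads to NF-kB activation than to death, whereas Tnfrsf1b has no death domain. In lymphoid tissue, Fas and Fasl remove lymphocytes after immune responses, and Fas and Tnfrsf10b are known as p53 target genes.

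Depth, estimated from the smallest steps between low values, was 4.72 to 11 M reads per sample, so the scarcest reading of a member, Fasl in 1 Trp53-/- mock B sample, rested on about 21 reads, a counting error of 21.9%. As a check of the genotype labels, Trp53 itself was at 43.4 to 49.5 RPKM (reads per kilobase of exon and per M exonic reads) in Trp53+/+ mock samples of both fractions and at 21.6 to 25.0 RPKM in Trp53-/- mock samples, so reads over the gene remained in the null. The canonical p53 target Cdkn1a went from 0.893–1.36 to 82.3–97.8 RPKM in Trp53+/+ B cells and stayed at 0.562–0.726 RPKM in irradiated Trp53-/- B cells, and Mdm2, the gene of the p53 inhibitor, rose by 1.67 and 1.19 on the log2 scale in Trp53+/+ B and non-B cells. The fractions were not pure. Summed over 6 markers each, NK cell transcripts stood at 66.1 to 101 RPKM and macrophage and monocyte transcripts at 242 to 319 RPKM in Trp53+/+ mock B cells, and B cell transcripts at 247 to 396 RPKM in the matching non-B cells. Erythroid markers, present to 5 of 6 in the files, summed to 104–259 RPKM in Trp53+/+ mock non-B cells and to 23.3–54.4 RPKM after IR. In such bulk samples, fewer cells of a type and less RNA per cell cannot be told apart. Some irradiated libraries also stood apart: among 1434 olfactory and vomeronasal receptor genes, 5.3% to 9.21% were above 0 in the mock samples of either genotype, against 6.97% to 47.2% in Trp53+/+ IR B cells and 8.51% to 51.3% in Trp53+/+ IR non-B cells. In the Trp53-/- IR samples the share was 6.76% to 13%. The 5 libraries above 20% were replicates 1 and 2 of the irradiated Trp53+/+ B cells and replicates 1, 3 and 4 of the irradiated Trp53+/+ non-B cells, and the calls below were repeated without them.

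Before irradiation the pathway was stocked differently in the 2 fractions. In Trp53+/+ mock B cells the inhibitor Cflar was the most abundant of the 10 transcripts at 32.6 ± 0.54 RPKM (SD, n = 4), followed by Tradd at 30.2 ± 1.17, Tnf at 22.0 ± 3.26 and Tnfrsf1b at 18.4 ± 0.864, and the sample ranges of these 4 genes did not overlap. Fas, at 6.59 ± 1.44 RPKM, shared its range with Tnfsf10, at 6.44 ± 0.516, while Tnfrsf10b (3.72 ± 0.464) and Fasl (1.79 ± 0.365) were the scarcest. In the non-B cells the TNF receptors led, Tnfrsf1a at 53.7 ± 8.44 RPKM and Tnfrsf1b at 51.9 ± 2.70, with overlapping ranges. In this comparison of B with non-B cells, 5 of the 10 members passed the test, all lower in B cells, where 7.38% of the 14598 genes tested were higher and 17.2% lower in B cells. A gene was called when limma's moderated test on log2(RPKM + 0.5) gave a Benjamini-Hochberg adjusted p under 0.05 over all genes tested and the log2 difference exceeded 0.58 in size.

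Fasl, the ligand of cytotoxic lymphocytes, showed the widest gap among the members between the unirradiated fractions: it lay 2.76 lower in B cells on the log2 scale (SE 0.208, adjusted p = 3.9e-08), and the B cell range of 1.43 to 2.23 RPKM was far from the non-B range of 12.4 to 18.2 RPKM. NK cell markers differed between the fractions in the same direction, at 66.1–101 against 267–426 RPKM, and their part in the Fasl level was not tested. Tnfrsf1a was lower by 2.08 (SE 0.174, adjusted p = 1.1e-07), Tnfrsf1b by 1.47 (SE 0.0842, adjusted p = 3.3e-09), Fas by 1.39 (SE 0.116, adjusted p = 1.1e-07) and Tnfsf10 by 0.85 (SE 0.131, adjusted p = 6.7e-05). Tnf, Fadd and Tradd were nearly level between the fractions, with log2 differences of 0.09, 0.01 and 0.09 and adjusted p of 0.6, 0.93 and 0.46. Tnfrsf10b was 0.43 lower in B cells with an adjusted p of 0.0077, which is under the fold limit, and under quantile normalization the difference was 0.0034.

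The loss of p53 alone left the unirradiated pathway without a called change. None of the 10 members was called between Trp53-/- and Trp53+/+ mock cells, where 0.0506% of the genes tested in B cells and 0.0428% of those in non-B cells were called in either direction. At an unadjusted p under 0.05, limma counted 589 genes in the B cells and 705 in the non-B cells. The member nearest to a difference was Fas in B cells, at 4.84 and 3.78 RPKM in the null against 8.37, 5.92, 7.05 and 5.03 RPKM in Trp53+/+, a log2 difference of -0.55 with a 95% interval of -1.03 to -0.06, an unadjusted p of 0.031 and an adjusted p of 1. The size of this difference is also under the fold limit.

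**Figure D1:**
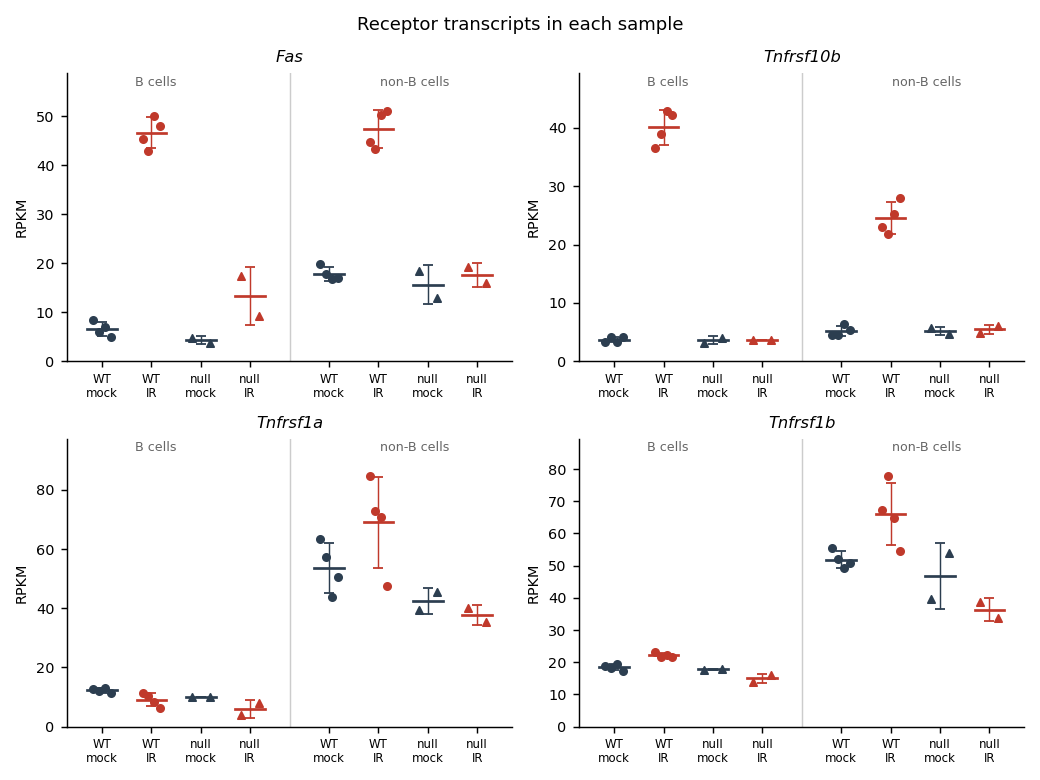
RPKM of the 4 receptor transcripts in each sample; each dot (Trp53+/+, WT) or triangle (Trp53-/-, null) is 1 sample, dark for mock and red for IR, the bar is the group mean and the whisker its SD, with B cells left and non-B cells right of the grey line. Fas and Tnfrsf10b stand apart in irradiated Trp53+/+ samples of both fractions, whereas Tnfrsf1a and Tnfrsf1b separate chiefly by fraction.

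Irradiation raised 3 of the 10 members in Trp53+/+ B cells and lowered none, where 12.5% of the 13821 genes tested were higher and 12.2% lower. The 3 were the receptors Fas and Tnfrsf10b and the ligand Fasl. In Trp53+/+ non-B cells 2 of the 10, again Fas and Tnfrsf10b, were higher, where 5.74% of the 14018 genes tested were higher and 4.11% lower. In Trp53-/- B cells Fas and Tnf rose and Tnfrsf1a fell, 3 of the 10, beside 13.1% of all genes tested higher and 11.2% lower, and in Trp53-/- non-B cells no member was called, beside 0.193% higher and 0.25% lower. The median log2 change of the 10 members was 0.05 in Trp53+/+ B cells and 0.20 in Trp53+/+ non-B cells, beside 0.01 and -0.03 over all genes tested.

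Fas, the receptor for Fas ligand, was at 8.37, 5.92, 7.05 and 5.03 RPKM in the mock Trp53+/+ B samples and at 45.4, 43.0, 50.2 and 48.0 RPKM in the irradiated ones. The 2 groups were far apart, and Fas passed from the seventh most abundant member to the first. The log2 change was 2.75 (SE 0.183, 95% interval 2.35 to 3.15, adjusted p = 1.5e-07), a 6.74-fold rise, and it ranked 70 among the 13821 genes tested when ordered from the largest rise. In non-B cells Fas began higher, at 19.9, 17.9, 16.8 and 16.9 RPKM, and reached 44.8, 43.4, 50.2 and 51.1 RPKM. That was a log2 change of 1.38 (SE 0.115, adjusted p = 1.6e-05), a 2.60-fold rise. The responses of the fractions differed by 1.37 (SE 0.164, adjusted p = 2.5e-05), in a comparison in which 9.88% of genes tested responded more strongly in B cells and 8.9% more strongly in non-B cells. The fold changes differed while the end points did not separate, since the irradiated B and non-B ranges, 43.0–50.2 and 43.4–51.1 RPKM, overlapped almost entirely.

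Part of the Fas response in B cells was seen without p53. The 2 mock Trp53-/- B samples were at 4.84 and 3.78 RPKM and the 2 irradiated ones at 17.5 and 9.17 RPKM, and the groups did not overlap although the irradiated samples lay far from each other. The log2 change was 1.46 (SE 0.259, 95% interval 0.90 to 2.03, adjusted p = 0.00074), between 1.02 and 1.91 when any 1 B cell sample was left out, and the call was kept in all the alternatives run. The rise in Trp53+/+ B cells exceeded it by 1.29 (SE 0.317, adjusted p = 0.015), where 6.56% of genes tested had a larger and 5.43% a smaller log2 response in Trp53+/+ B cells. This last call was lost in 2 of the 12 fits that left out 1 sample: it was 1.13 with an adjusted p of 0.081 without null mock replicate 1 and 0.84 with an adjusted p of 0.051 without null irradiated replicate 2. With only replicates 1 and 2 or only 3 and 4 of Trp53+/+ it was 1.10 and 1.47 with adjusted p of 0.08 and 0.055.

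In Trp53-/- non-B cells Fas was at 18.4 and 12.8 RPKM in mock and at 19.3 and 15.9 RPKM after IR. The groups overlapped, with a log2 change of 0.18 (95% interval -0.18 to 0.54, adjusted p = 0.65). The genotypes differed by 1.20 (SE 0.2, adjusted p = 0.0063), where 3.72% of genes tested had a larger log2 response and 2.82% a smaller one in Trp53+/+ non-B cells. Without the libraries above 20%, which leaves 1 irradiated Trp53+/+ non-B sample, the difference was 1.08 with an adjusted p of 0.089, and with Trp53+/+ replicates 1 and 2 only it was 1.02 with an adjusted p of 0.0502.

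Tnfrsf10b, the mouse death receptor for TRAIL, was among the scarcest of the members before irradiation and responded in Trp53+/+ cells alone by the call. In Trp53+/+ B cells it was at 3.35, 4.16, 3.29 and 4.08 RPKM in mock samples and at 36.5, 38.9, 42.9 and 42.2 RPKM after IR. The irradiated samples were all more than 8 times above every mock sample. The log2 change was 3.27 (SE 0.11, 95% interval 3.03 to 3.51, adjusted p = 3.7e-10), a 9.65-fold rise and rank 47 of 13821. In the Trp53-/- B cells it was at 3.11 and 4.06 RPKM in mock and at 3.59 RPKM in both irradiated samples. There the log2 change was 0.01, with a 95% interval of -0.33 to 0.35, and the genotypes differed by 3.26 (SE 0.19, adjusted p = 3.0e-07).

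In Trp53+/+ non-B cells Tnfrsf10b went from 4.54, 4.54, 6.37 and 5.38 RPKM to 23.0, 21.8, 25.3 and 28.0 RPKM, a log2 change of 2.14 (SE 0.138, adjusted p = 2.0e-06). The Trp53-/- non-B samples were at 5.66 and 4.65 RPKM in mock and at 4.88 and 6.04 RPKM after IR, and these values overlapped. The log2 change in the null was 0.07 (95% interval -0.35 to 0.50) and the genotypes differed by 2.06 (SE 0.239, adjusted p = 0.00068). Unlike Fas, Tnfrsf10b ended higher in B than in non-B cells, at 40.1 ± 3.00 against 24.5 ± 2.75 RPKM with no overlap, and the responses of the fractions differed by 1.13 (SE 0.166, adjusted p = 0.00014). Both the IR calls and the genotype calls of Tnfrsf10b in both fractions were kept in all the alternatives run.

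**Figure D2:**
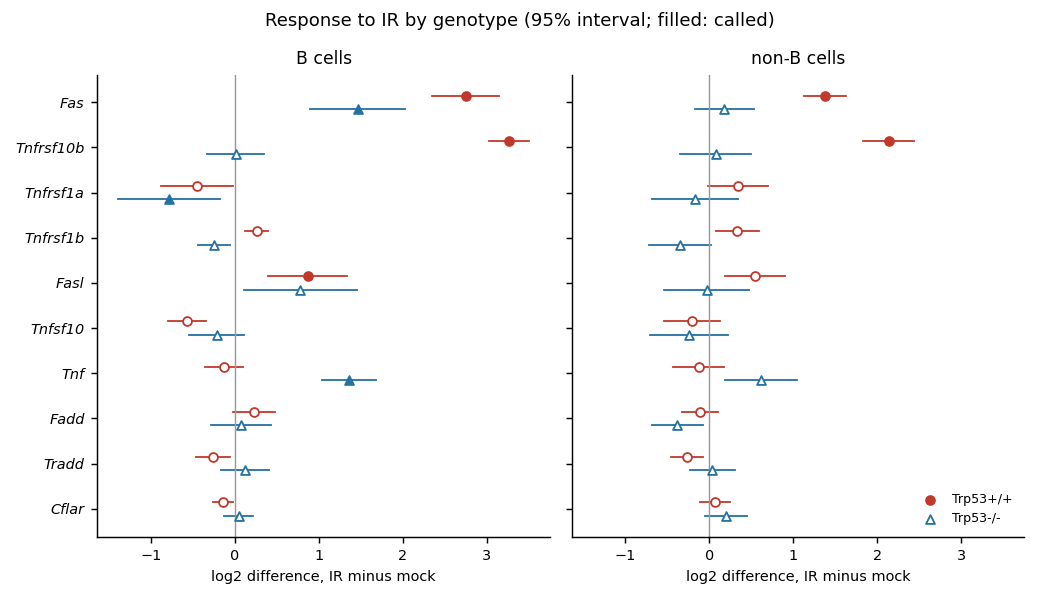
Log2 difference between irradiated and mock cells for the 10 members, with its 95% interval, in Trp53+/+ (red circles, n = 4 against 4) and Trp53-/- (blue triangles, n = 2 against 2) B and non-B cells; filled symbols passed the test. Tnfrsf10b is at 3.27 and 2.14 in Trp53+/+ and near 0 in Trp53-/-, Fas keeps a rise of 1.46 in Trp53-/- B cells, and Tnf is raised in Trp53-/- B cells only by the call.

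The regions near both receptor genes were searched for the p53 response element, the consensus of a pair of 10-base repeats in its form without a spacer, on both strands, with the C and G of each core fixed. In windows from 5 kb before to 2 kb after the gene start, 0.165% of 18780 protein-coding genes held the exact element, 1.29% a match with at most 1 mismatch, 7.22% with at most 2 and 29.7% with at most 3. Of the 10 members only Fas had a match in this window at up to 3 mismatches. It lay in intron 1, 1715 bp from the gene start, at chr19:34366854-34366873 of NCBIM37 (mm9), plus strand, with 2 mismatches. Within the gene body of Tnfrsf10b the best match was in intron 2, at chr14:70172893-70172912, plus strand, with 3 mismatches. The stretches are shown because these are the members with the largest rise, with the matched 20 bases in capitals and 20 flanking bases on each side in lower case.
Fas intron 1: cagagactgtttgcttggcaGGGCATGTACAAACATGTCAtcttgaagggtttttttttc
Tnfrsf10b intron 2: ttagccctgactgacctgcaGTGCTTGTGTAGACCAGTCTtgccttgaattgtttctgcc
A match describes letters in the reference genome, and binding was not analysed here.

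Tnfrsf1a, the death-domain receptor for TNF, separated by fraction more than by treatment, at 37.7 to 69.0 RPKM over the 4 non-B group means and at 5.9 to 12.2 RPKM over the 4 B group means. In Trp53+/+ B cells it was at 12.8, 11.9, 13.1 and 11.2 RPKM in mock and at 11.3, 10.2, 8.18 and 6.40 RPKM after IR, overlapping by a little. The log2 change of -0.45 (SE 0.198) had an adjusted p of 0.076, and without the 2 B cell libraries above 20% it was -0.72 with an adjusted p of 0.02. The Trp53+/+ non-B cells went from 63.3, 57.3, 43.9 and 50.5 RPKM to 84.7, 72.9, 70.8 and 47.6 RPKM, with the last sample below 3 of the mock ones, a log2 change of 0.34 (SE 0.164, adjusted p = 0.17).

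The estimated responses of the fractions pointed in opposite directions, and their difference of -0.79 (SE 0.246, adjusted p = 0.025) was called. It was -0.68 with an adjusted p of 0.051 without irradiated non-B replicate 1 and -0.57 with Trp53+/+ replicates 1 and 2 only. Markers of macrophages and monocytes, cells known for high Tnfrsf1a, summed to 242–319 RPKM in mock and 176–270 RPKM in irradiated Trp53+/+ B cells. In the non-B cells the sums were 294–353 and 328–482 RPKM. By the test, 1 of the 6 markers fell in B cells, 1 rose in non-B cells and 3 had a lower response in B cells. Between the mock fractions, where Tnfrsf1a differed by -2.08, their median log2 difference was 0.04, with 1 marker higher and 2 lower in B cells. Their part in the result was not tested.

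In Trp53-/- B cells Tnfrsf1a was at 9.87 and 9.99 RPKM in mock and at 3.84 and 7.96 RPKM after IR. The called log2 change of -0.78 (SE 0.28, adjusted p = 0.041) was lost in 8 of the 12 fits that left out 1 sample. Without the first irradiated null sample it was -0.30 with an adjusted p of 0.43, and without either mock null sample -0.79 and -0.78 with adjusted p of 0.12 and 0.13. Leaving out any Trp53+/+ mock sample or irradiated Trp53+/+ replicate 3 kept the change at -0.78 and gave adjusted p of 0.0501 to 0.0548. It was 0.062 with no filter on low values and 0.064 under quantile normalization. The macrophage and monocyte sum was 131 RPKM in that first irradiated sample, 225 RPKM in the second, and 222 and 237 RPKM in the mock samples, and its part was not tested. In Trp53-/- non-B cells the values were 39.4 and 45.6 RPKM in mock and 40.1 and 35.3 RPKM after IR, an overlap, with an adjusted p of 0.79. The genotypes did not differ by the call in either fraction, with a 95% interval of the difference of -0.41 to 1.08 for B cells and -0.11 to 1.13 for non-B cells.

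Tnfrsf1b, the TNF receptor without a death domain, moved little but evenly in B cells. It went from 18.7, 18.3, 19.4 and 17.3 RPKM to 23.1, 21.5, 22.3 and 21.7 RPKM in Trp53+/+ and from 17.7 and 17.98 RPKM to 13.96 and 16.04 RPKM in Trp53-/-. Neither pair of groups overlapped, and the directions were opposite. The log2 changes of 0.26 (SE 0.0631, adjusted p = 0.0044) and -0.25 (SE 0.0893, adjusted p = 0.043) were below the fold limit, and so was the difference between the genotypes, 0.51 (SE 0.109, adjusted p = 0.0077). It was 0.60, above the limit, without the second irradiated null sample.

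In non-B cells Tnfrsf1b was at 55.6, 52.0, 49.2 and 50.7 RPKM in mock and at 67.3, 77.8, 64.8 and 54.4 RPKM after IR in Trp53+/+, and at 39.5 and 53.9 RPKM in mock and 38.8 and 33.8 RPKM after IR in Trp53-/-. Only 1 irradiated Trp53+/+ sample fell within the mock range. The genotypes differed by 0.68 (SE 0.204) with an adjusted p of 0.065, which was 0.028 under quantile normalization, 0.03 without irradiated Trp53+/+ replicate 4 and 0.04 without null mock replicate 1.

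**Figure D3:**
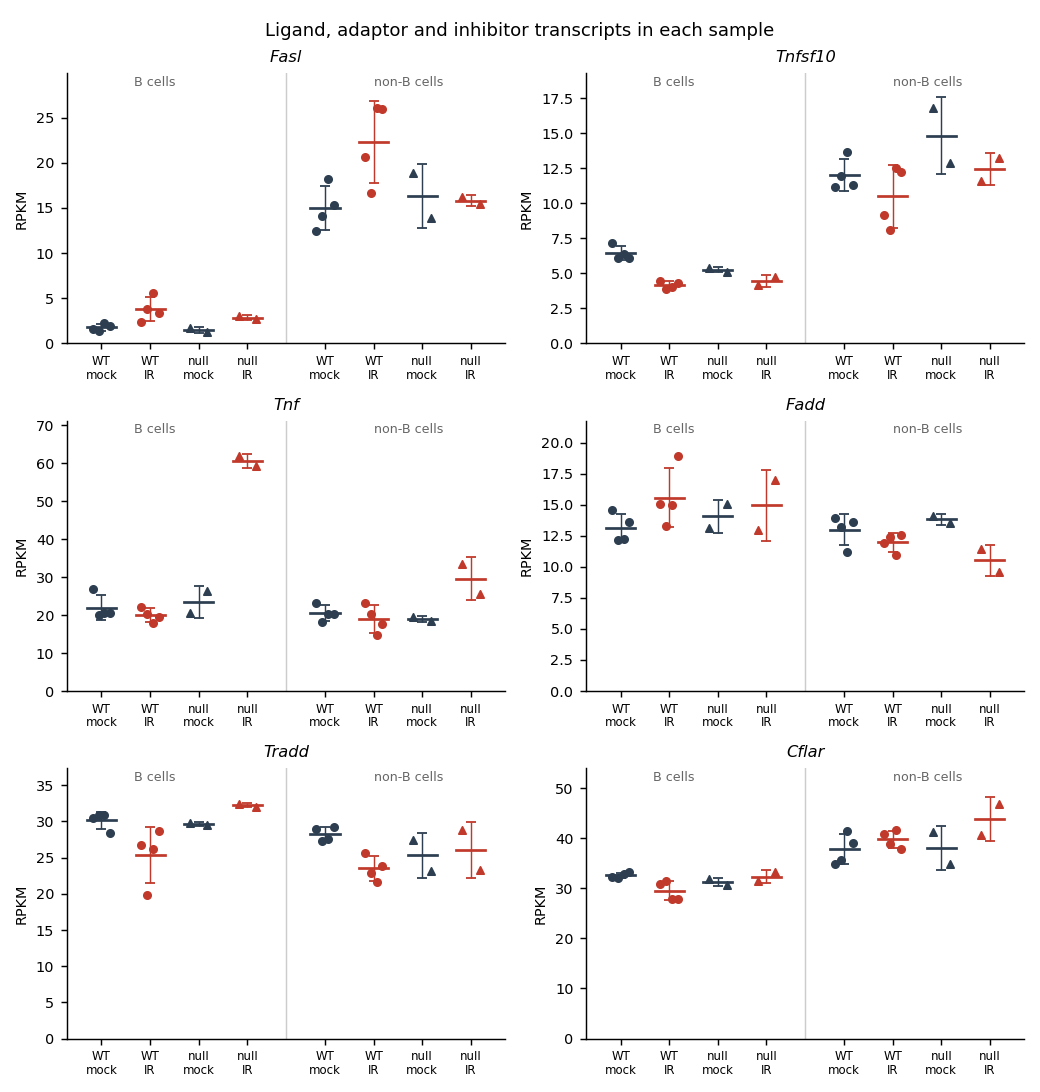
RPKM of the 3 ligands, the 2 adaptors and the inhibitor Cflar in each sample; dots are Trp53+/+ (WT) and triangles Trp53-/- (null) samples, dark for mock and red for IR, bars are group means and whiskers SD. Tnf stands apart in the irradiated Trp53-/- B samples at 61.9 and 59.3 RPKM, Fasl separates by fraction, and Fadd, Tradd and Cflar lie in narrow bands.

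Among the ligands, Fasl rose after IR in Trp53+/+ B cells from a low level. It was at 1.56, 1.43, 2.23 and 1.94 RPKM in mock samples and at 2.34, 3.87, 5.59 and 3.39 RPKM after IR. All irradiated samples were above all mock samples, the lowest of them by a small margin. The log2 change was 0.87 (SE 0.218, adjusted p = 0.0054), and it was 0.68 to 1.05 when any 1 B cell sample was left out. The Trp53-/- B cells went from 1.69 and 1.23 RPKM to 3.04 and 2.66 RPKM, a log2 change of 0.78 (SE 0.309) with an adjusted p of 0.062, which was 0.034 without Trp53+/+ irradiated replicate 1 or 3, where the pooled spread changes. The genotypes differed by 0.09 with a 95% interval of -0.74 to 0.91. NK cell markers, whose cells make Fasl, summed to 66.1–101 RPKM in mock and 52.4–93.2 RPKM in irradiated Trp53+/+ B cells. Of their 6 genes 0 passed the test there. T cell markers summed to 55.9–61.4 RPKM in mock and 37.0–61.6 RPKM in irradiated Trp53+/+ B cells, with 1 of 6 lower by the test. The part of either cell type in the Fasl change was not tested.

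Fasl in Trp53+/+ non-B cells was at 12.4, 14.2, 18.2 and 15.3 RPKM in mock and at 20.7, 16.6, 26.0 and 26.0 RPKM after IR. One irradiated sample, replicate 2, lay within the mock range. The log2 change of 0.55 (SE 0.162, adjusted p = 0.037) was just under the fold limit, was 0.63 under quantile normalization, and passed without mock replicate 3 (0.64) or irradiated replicate 2 (0.68). The Trp53-/- non-B cells were at 18.9 and 13.8 RPKM in mock and at 16.2 and 15.4 RPKM after IR, with the irradiated values inside the mock ones.

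Tnfsf10, the gene of TRAIL, moved against its receptor in B cells. It went from 7.18, 6.10, 6.39 and 6.08 RPKM to 4.48, 3.85, 4.06 and 4.31 RPKM in Trp53+/+ B cells, with no overlap. The log2 change of -0.57 (SE 0.105, adjusted p = 0.00067) stood at the edge of the fold limit, and it passed with a pseudocount of 0.1 (-0.61) and without mock replicate 2 or 4 or irradiated replicate 1 or 4 (-0.59, -0.59, -0.60 and -0.58). The Trp53-/- B cells were at 5.39 and 5.12 RPKM in mock and at 4.17 and 4.74 RPKM after IR, also lower, with an adjusted p of 0.27. In non-B cells it was at 11.2 to 13.6 RPKM in mock and 8.07 to 12.5 RPKM in irradiated Trp53+/+ samples, which overlapped, and at 16.8 and 12.9 RPKM against 11.6 and 13.2 RPKM in Trp53-/-.

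Tnf, the gene of the cytokine TNF, rose in Trp53-/- B cells, and no change of it was called in Trp53+/+ cells. In Trp53-/- B cells it was at 20.6 and 26.3 RPKM in mock and at 61.9 and 59.3 RPKM after IR, the highest level of any member there. Both irradiated samples were more than 2 times above both mock samples. The log2 change was 1.36 (SE 0.15, 95% interval 1.03 to 1.69, adjusted p = 2.4e-05), a 2.57-fold rise and rank 318 of 13821. The Trp53+/+ B cells were at 26.9, 19.98, 20.5 and 20.6 RPKM in mock and at 22.2, 20.3, 17.8 and 19.5 RPKM after IR, overlapping, with a log2 change of -0.13 (95% interval -0.36 to 0.10, adjusted p = 0.33). The genotypes differed by -1.49 (SE 0.184, adjusted p = 0.00018), Trp53+/+ minus Trp53-/-, rank 71 from the lowest among 13821 genes. All alternatives run kept this call.

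In non-B cells the same direction was seen without a call. Trp53-/- samples were at 19.5 and 18.4 RPKM in mock and at 33.5 and 25.5 RPKM after IR, with no overlap and a log2 change of 0.61 (SE 0.196, adjusted p = 0.16). Trp53+/+ samples were at 23.2, 18.1, 20.3 and 20.4 RPKM in mock and at 23.3, 20.4, 14.7 and 17.5 RPKM after IR. The genotypes differed by -0.74 (SE 0.24) with an adjusted p of 0.084. With the replicate number as a block the adjusted p was 0.048, but it was 0.073 when the numbers of the irradiated null samples were crossed in that block. It was 0.049 without irradiated Trp53+/+ replicate 1 and 0.044 with Trp53+/+ replicates 3 and 4 only.

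The adaptors and the inhibitor varied least. Fadd, which links Fas and Tnfrsf10b to caspase-8, had group means of 10.5 to 15.6 RPKM over the 8 groups, and every neighbour in that order overlapped the next. None of its IR changes was called. The log2 change was 0.23 (SE 0.117, adjusted p = 0.12) in Trp53+/+ B cells and -0.11 in Trp53+/+ non-B cells. The largest was in Trp53-/- non-B cells, from 14.1 and 13.5 RPKM to 11.4 and 9.63 RPKM, without overlap. There the log2 change was -0.38 (adjusted p = 0.21). Tradd, the adaptor of Tnfrsf1a, had group means of 23.5 to 32.3 RPKM. It went from 30.5, 30.9, 30.8 and 28.4 RPKM to 26.7, 19.8, 26.2 and 28.7 RPKM in Trp53+/+ B cells, where 1 irradiated sample lay inside the mock range. The Trp53+/+ non-B cells went from 29.0, 27.3, 27.6 and 29.2 RPKM to 25.7, 22.9, 21.7 and 23.8 RPKM with no overlap. The log2 changes were -0.26 in both, with adjusted p of 0.034 and 0.055, below the fold limit.

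Cflar, the inhibitor, had group means of 29.5 to 43.8 RPKM. In Trp53+/+ B cells it was at 32.3, 32.0, 32.8 and 33.2 RPKM in mock and at 30.9, 31.4, 27.9 and 27.8 RPKM after IR. The irradiated samples were all lower, by a log2 change of -0.14 (SE 0.0556, adjusted p = 0.048), far inside the fold limit. In irradiated Trp53+/+ B cells Fas at 46.7 RPKM and Tnfrsf10b at 40.1 RPKM both stood above Cflar at 29.5 RPKM, whereas in mock B cells Cflar stood above both. The levels of Cflar in Trp53-/- B cells, 31.9 and 30.7 RPKM in mock and 31.5 and 33.2 RPKM after IR, overlapped.

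The genes whose level over all 24 samples ran closest to Fas, by Pearson's r of log2(RPKM + 0.5) among 14688 genes, were Hdac4 (0.968), Acad8 (0.956), Hic1 (0.949), Pmaip1 (0.938) and Dennd2c (0.935). Those closest to Tnfrsf10b were Csnk1g1 (0.99), Fam212b (0.989), Qpctl (0.989), Zfp365 (0.987) and Ercc5 (0.986). Fas and Tnfrsf10b themselves correlated at 0.875, rank 60 in the list of Fas and rank 252 in that of Tnfrsf10b. The samples share 8 groups, so these values describe the pattern over groups more than over independent samples.

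The rest of the pathway was read from 4 lists: 29 signalling partners of the death receptors, 24 other receptors and 15 other ligands of the TNF families, and 5 sheddases and their regulators. Among the partners, in Trp53+/+ B cells, 2 of 29 tested were higher and 1 lower, with a median log2 change of -0.05, beside 12.5% of all genes tested higher, 12.2% lower and a median of 0.01. Neither count of partners was above that background. Tnfaip3, a ubiquitin-editing inhibitor of NF-kB, rose by 1.13 (adjusted p = 1.8e-07) and Traf1 by 0.61 (adjusted p = 0.0029), and Traf5 fell by 0.74 (adjusted p = 5.9e-05). Traf1 went under the fold limit without mock replicate 4 (0.47) or irradiated replicate 2 (0.53), and without the libraries above 20% (0.45). In Trp53-/- B cells Traf1 rose by 1.157 (adjusted p = 0.0006) and Traf5 fell by 0.85 (adjusted p = 0.00046). Of the same 29 partners 1 was called in Trp53+/+ non-B cells, Tnfaip3, which rose by 0.85 (adjusted p = 7.1e-05), beside 5.74% of all genes higher and 4.11% lower.

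Tnfaip3 was at 32.8, 30.5, 30.6 and 28.2 RPKM in mock and at 63.9, 78.6, 66.4 and 61.0 RPKM in irradiated Trp53+/+ B cells, and at 30.9 and 32.2 RPKM in mock and 66.4 and 61.9 RPKM in irradiated Trp53-/- B cells. The irradiated samples of both genotypes stood clear of all mock samples. Tnfaip3 rose by 1.13 in Trp53+/+ and by 1.01 in Trp53-/- B cells, and the difference was 0.12 with a 95% interval of -0.17 to 0.41. In the Trp53-/- cells 3 of the 29 partners were higher and 1 lower in B cells, beside 13.1% and 11.2% of all genes, and none was called in non-B cells.

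Among the other receptors, 5 of 22 tested were higher and 2 lower in Trp53+/+ B cells, beside 12.5% and 12.2% of all genes, with a median log2 change of -0.03. In Trp53+/+ non-B cells 4 of 20 were higher and none lower, beside 5.74% and 4.11% of all genes, with a median of 0.32. Tnfrsf18, the costimulatory receptor GITR, rose by 1.42 in B cells (adjusted p = 1.7e-06) and by 1.02 in non-B cells (adjusted p = 8.9e-05). Tnfrsf26, a decoy-type receptor, went from 15.3, 14.6, 13.8 and 13.96 RPKM to 30.6, 28.3, 40.3 and 39.8 RPKM in Trp53+/+ B cells, and from 14.7 and 15.99 RPKM to 4.95 and 6.20 RPKM in Trp53-/- B cells. Its rise of 1.22 (adjusted p = 3.0e-06) and its fall of 1.39 in the null (adjusted p = 3.9e-05) were both called, and the genotypes differed by 2.61 (SE 0.2, adjusted p = 3.0e-06).

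Eda2r, a receptor for ectodysplasin, was read at 1.07, 1.66, 1.53 and 0.961 RPKM in irradiated Trp53+/+ B cells and at 0 to 0.035 RPKM in the mock ones. It was listed at 0 in every Trp53-/- sample of either fraction. The called log2 change of Eda2r in Trp53+/+ cells was 1.795 in B cells (adjusted p = 6.3e-06) and 1.449 in non-B cells (adjusted p = 0.00013). With mock B cell values so near 0, the size of the B cell change was set largely by the pseudocount and is not a measured fold. Ngfr fell by 1.60 on the log2 scale (adjusted p = 2.5e-05) and Tnfrsf13b, the receptor TACI, by 0.96 (adjusted p = 3.3e-06) in Trp53+/+ B cells. In Trp53+/+ non-B cells the called ones were Eda2r, Tnfrsf9 (1.18, adjusted p = 5.1e-05), Tnfrsf18 and Tnfrsf4 (0.80, adjusted p = 0.00021), of which Tnfrsf9 and Tnfrsf4 encode the costimulatory receptors 4-1BB and OX40. In Trp53-/- B cells 1 of 22 was higher and 4 lower, beside 13.1% and 11.2% of all genes, and in Trp53-/- non-B cells none of 20 was called.

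The largest change in the families was that of a ligand with no death receptor. Tnfsf4, the gene of OX40 ligand, was at 0.483, 0.73, 0.651 and 0.194 RPKM in mock and at 56.4, 58.9, 74.1 and 67.5 RPKM in irradiated Trp53+/+ B cells. The log2 change was 6.02 (SE 0.18, adjusted p = 1.5e-10), rank 3 among the 13821 genes tested from the largest rise. Its level in Trp53+/+ non-B cells went from 1.80, 1.10, 1.02 and 0.534 RPKM to 30.5, 36.6, 42.8 and 44.5 RPKM, a log2 change of 4.64 (SE 0.249, adjusted p = 4.3e-07). In Trp53-/- B cells it was at 0.068 and 0.141 RPKM in mock and at 1.13 and 1.33 RPKM after IR, a called change of 1.52 (SE 0.254, adjusted p = 0.00051) at a low level. The genotypes differed by 4.50 (SE 0.311) in B cells and by 4.62 (SE 0.431) in non-B cells, with adjusted p of 1.1e-06 and 0.00018.

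Over the other ligands, 3 of 11 tested were higher and none lower in Trp53+/+ B cells, beside 12.5% and 12.2% of all genes, with a median log2 change of 0.135. In Trp53+/+ non-B cells 5 of 13 were higher and 1 lower, beside 5.74% and 4.11% of all genes, with a median of 0.41. Tnfsf8, the gene of CD30 ligand, went from 1.70, 1.72, 1.76 and 1.07 RPKM to 8.28, 11.02, 8.60 and 9.43 RPKM in Trp53+/+ B cells, and from 1.52 and 1.07 RPKM to 0.559 and 0.674 RPKM in Trp53-/- B cells, a difference of 2.93 (SE 0.286, adjusted p = 2.7e-05). In non-B cells its Trp53+/+ rise was 1.25 (adjusted p = 0.00093). Tnfsf13b, the gene of BAFF, rose by 0.79 in Trp53+/+ B cells with an adjusted p of 0.035, and the call was lost without any 1 of the 4 mock samples or without irradiated replicate 1 or 2, with adjusted p of 0.052 to 0.086. In non-B cells Tnfsf15 (1.02, adjusted p = 0.021) and Tnfsf14 (0.88, adjusted p = 0.026) rose and Cd40lg fell by 0.89 (adjusted p = 0.048). Of the 12 fits that left out 1 sample, 1 lost the Tnfsf15 call, that without mock replicate 4 (adjusted p = 0.055). The Tnfsf14 call was lost in 5 of the 12, with adjusted p up to 0.072. That of Cd40lg was lost in 7 of the 12, with adjusted p up to 0.115.

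The sheddase list, which releases TNF and its receptors from the cell surface, had 1 of 5 tested called in Trp53+/+ B cells, a fall, and 1 of 4 in non-B cells, a rise, beside 12.2% of all genes lower and 5.74% higher. Rhbdf1 fell by 0.70 (adjusted p = 0.021) in B cells, a call lost without mock replicate 1 or 2 or irradiated replicate 3 (adjusted p of 0.06, 0.061 and 0.063). Rhbdf2, the partner that carries the TNF sheddase to the surface, rose by 0.82 (adjusted p = 0.0044) in non-B cells. In B cells Rhbdf2 was at 27.9, 29.0, 28.3 and 33.9 RPKM in mock and at 39.0, 37.3, 39.8 and 43.4 RPKM after IR in Trp53+/+, and at 29.8 and 29.4 RPKM in mock and 9.44 and 10.9 RPKM after IR in Trp53-/-. The genotypes thus moved apart by 1.91 (SE 0.131, adjusted p = 1.1e-06). In the irradiated Trp53-/- B samples Rhbdf2 was low and Tnf was high. In that comparison 3355 genes were called, and a link between Rhbdf2 and Tnf was not tested.

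Without the 3 non-B libraries above 20%, which leaves 1 irradiated Trp53+/+ sample, 6 of the 12 companion calls of the Trp53+/+ non-B cells were lost with direction kept, among them Tnfrsf18 (0.88, adjusted p = 0.051), Tnfsf8 (0.92, adjusted p = 0.14) and Rhbdf2 (0.80, adjusted p = 0.14), and Tnfsf4 was kept.

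**Figure D4:**
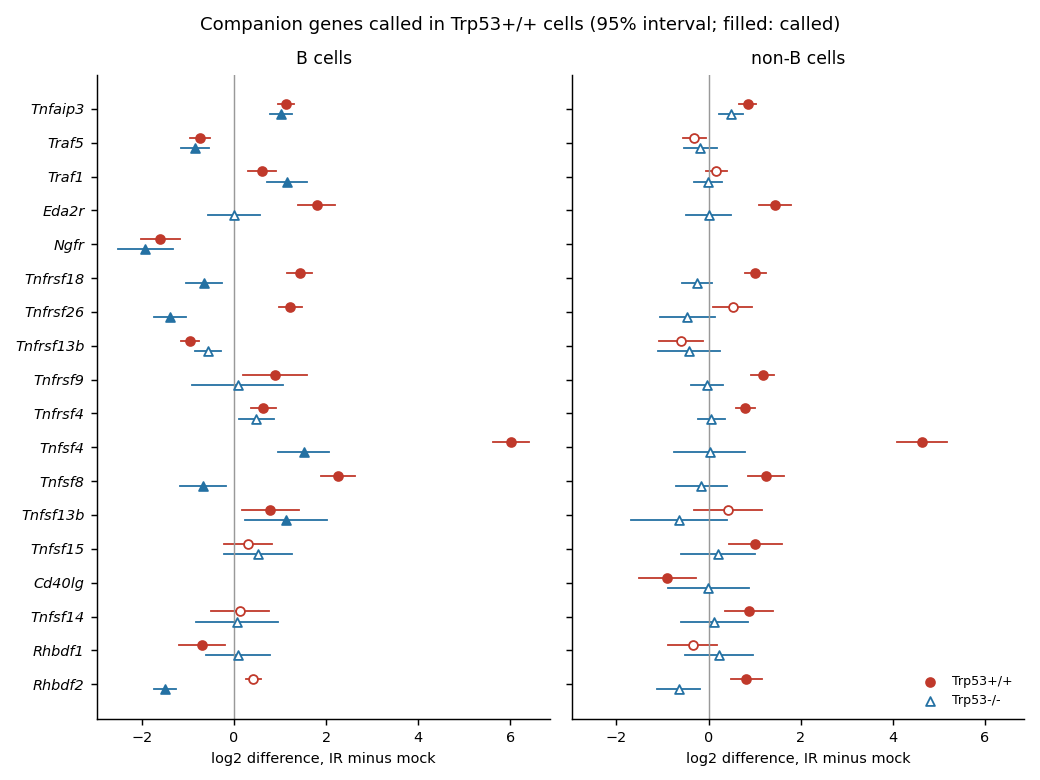
Log2 difference between irradiated and mock cells, with its 95% interval, for the genes of the 4 companion lists called in Trp53+/+ cells of either fraction, at most 5 per list and fraction; red circles are Trp53+/+ and blue triangles Trp53-/-, filled where called, with values on the log2(RPKM + 0.5) scale. Tnfsf4 is at 6.02 and 4.64 in Trp53+/+, Tnfaip3 and Traf5 lie close together in both genotypes in B cells, and Tnfrsf18, Tnfrsf26, Tnfsf8 and Rhbdf2 lie on opposite sides of 0 there.

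Lta is the gene of lymphotoxin alpha, a TNF family ligand that binds the TNF receptors. It was chosen after its values were seen, because it rose in irradiated Trp53-/- B cells as Tnf did. It was at 33.8 and 30.4 RPKM in mock and at 47.8 and 52.1 RPKM in irradiated Trp53-/- B cells, a log2 change of 0.63 (adjusted p = 0.00074). In Trp53+/+ B cells it went from 37.0, 34.3, 30.2 and 31.2 RPKM to 25.7, 26.2, 22.8 and 27.4 RPKM. The irradiated samples were higher than the mock ones in the null and lower in Trp53+/+, without overlap in either. Tnf, unlike Lta, did overlap in Trp53+/+ B cells. The Lta responses of the genotypes differed by -1.003 (SE 0.137, adjusted p = 0.0004). The rise in the null went just under the fold limit without mock replicate 2 (0.56) or irradiated replicate 2 (0.57).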

How the data were processed

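Total RNA of 24 spleen samples was depleted of ribosomal RNA and sequenced on an Illumina HiSeq instrument. The authors masked bases of low quality, aligned reads to mm9 with TopHat (TopHat2 2.0.8 per the labels' processing notes), kept 1 read of each set of duplicates, counted exonic reads with featureCounts 1.4.5 and deposited RPKM per gene, rounded to 3 decimals. Dropping duplicates lowers the values of abundant transcripts: the highest RPKM of a library was 157 to 307. The library kit (TruSeq v2) does not mark strand and the counting options given set none, so reads of overlapping antisense genes cannot be told apart. Read counts were not used here. Depth was estimated from the steps between the lowest 1500 values, which for 59.5% to 75.5% of them came out whole to a tolerance of 0.1 (20% by chance), and reads were not recovered for a count test.

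Values were tested as log2(RPKM + 0.5), so fold changes of low genes are understated. Genes above 1 RPKM in at least 1 Trp53+/+ sample of the fit entered limma 3.58.1 (R 4.3.3), with 1 fit for the 12 B cell samples, 1 for the non-B samples and 1 for the 16 Trp53+/+ samples. Called means a Benjamini-Hochberg adjusted p under 0.05 over all genes tested and an absolute log2 difference above 0.58, and tests are two-sided. All 10 members passed the filter in every fit. On simulated data for B cells with 12946 genes tested, 99 of 100 genes with a log2 change of 1 in Trp53+/+ and 33 of 50 with a difference of 1 between genotypes were recovered, with 3 and 5 false calls. The simulation gave all genes and samples the same biological spread and left out the library differences in receptor genes. These counts thus describe cleaner data than the real samples. The members and lists were chosen with earlier results of these data known. Named were all members, Trp53, Cdkn1a and Mdm2 as a check, the 5 genes most like Fas and Tnfrsf10b, and of each companion list at most 5 called genes per fraction; 1 gene of the partner list is not reported here.

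Samples with the same replicate number deviated together in Trp53+/+ non-B cells (r of 0.156 to 0.323 over genes, mock with IR), which by the rule used counts as pairing, taken from the data and not from the labels. Different numbers deviated together to a like degree within replicates 1 and 2 and within 3 and 4 (0.129 to 0.314) and oppositely between these pairs of replicates (-0.374 to -0.136), so the structure was not specific to the number. Same-numbered samples did not in Trp53+/+ B cells (0.0152 to 0.0868). Alternatives were another pseudocount, no filter, median-ratio and quantile scaling, other thresholds, the receptor-gene share as a covariate, the replicate block and leaving out each sample. Gene positions come from GENCODE on NCBIM37, which is mm9.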

Additional observations from a re-analysis of the deposited data

Results flagged for a closer look

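Of 40 sets of 4 samples tested for a single extreme value by Dixon's ratio, 2 passed, and chance gives about 1 in 20. Tnf in Trp53+/+ mock B cells had a ratio of 0.91, with replicate 1 at 26.9 RPKM against 19.98 to 20.6 RPKM. Tradd in the same group had a ratio of 0.853, with replicate 4 at 28.4 RPKM against 30.5 to 30.9 RPKM.

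Several responses to IR differed between genotypes by the test of the difference, given as Trp53+/+ minus Trp53-/- on the log2 scale. In B cells they were Tnfrsf10b (3.26), Fas (1.29) and Tnf (-1.49), and in non-B cells Tnfrsf10b (2.06) and Fas (1.20). Between the fractions of Trp53+/+ mice, B minus non-B, the responses of Fas (1.37), Tnfrsf10b (1.13) and Tnfrsf1a (-0.79) differed. The Fas difference in B cells and the Tnfrsf1a difference between fractions were lost on leaving out single samples, as given with their values above.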

How the results depend on the processing

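Over the 100 member values, 2620 alternative values were computed. Of these, 2539 kept the call or its absence, and the direction too, apart from uncalled values that changed sign by less than the SE. A further 22 uncalled values changed sign by at least the SE. None of the called values was reversed, 22 lost the call and 37 values gained it. Under an adjusted p alone, 7 members passed in Trp53+/+ B cells. The genotype difference in non-B cells kept 1 member with Trp53+/+ replicates 1 and 2 only and 1 in libraries with under 20% of receptor genes above 0, alternatives chosen after seeing the data. Leaving out 1 sample at a time gave 3 to 4 members called in Trp53+/+ B cells, 2 to 4 in Trp53-/- B cells, 2 to 3 for the genotype difference in B cells, 2 to 3 in Trp53+/+ non-B cells, 2 to 3 for the genotype difference there, 2 to 3 between fractions, 5 for B against non-B cells, and 0 in the other comparisons. The replicate block changed 2 member calls, Fasl in Trp53-/- B cells (0.78, adjusted p = 0.044) and the Tnf difference in non-B cells, which was not called with the null numbers crossed, and no other. With the null non-B numbers crossed, chosen because the pairs correlated at -0.253, genes called in Trp53-/- non-B cells were 152, against 62 without and 17 with the block.

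Counts over all genes moved by more than 1.5 times in these cases. In Trp53+/+ non-B cells 1381 genes were called, 440 with the receptor-gene covariate, 321 in the low-receptor libraries, 918 without irradiated replicate 3, 670 at an adjusted p under 0.01 and 2615 by p alone. For the genotype difference in non-B cells, 918 fell to 300 with the covariate, 191 in the low-receptor libraries, 241 at 0.01, and 306 to 580 on leaving out single samples. For that in B cells, 1656 became 951 at 0.01, 2594 by p alone, and 1060 or 1073 without null replicate 1 of mock or IR. In Trp53-/- non-B cells the 62 became 0 to 38 in most alternatives. By p alone, 7084 genes were called in Trp53+/+ B cells, 5547 in Trp53-/- B cells and 5991 between fractions. Between mock genotypes the 7 in B cells became 13 without mock replicate 4 or with Trp53+/+ replicates 1 and 2, and the 6 in non-B cells became 3 to 49. Median-ratio scaling split the B cell genotype difference 1003 higher to 567 lower instead of 906 to 750, and quantile normalization split B against non-B cells 1880 to 1830 instead of 1077 to 2510. Of 186 called values of list genes, 0 changed direction under these scalings, and 2 and 22 lost the call. The cause of these moves was not tested. With 2 null samples a group, a log2 difference of 1 between genotypes was often missed on simulated data, and low transcripts such as Fasl in B cells rest on few reads.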
